A study of Homo sapiens with 5 samples.

Results

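Translation initiation factors were followed in HaCaT keratinocytes depleted of AHNAK. They were taken as the rows whose symbol starts with EIF and a digit from 1 to 6, with a mean of at least 1 FPKM (fragments per kilobase of transcript and per unit of sequencing depth) over the 5 libraries. Pseudogenes, antisense rows and a gene on chromosome Y were left out. The table held 59 such rows among 27933, and 48 were members. EIF4EBP1 and EIF4EBP2 end in P and a digit but are protein-coding genes in the annotation, and were kept. Of the 11 rows left out, 3 were antisense (EIF1AX-AS1, EIF1B-AS1 and EIF3J-AS1), 1 was a pseudogene (EIF3IP1), 1 was on chromosome Y (EIF1AY) and 6 had a mean under 1 FPKM (EIF3C, EIF3CL, EIF4A1, EIF4E1B, EIF4E3 and EIF4EBP3). Just inside the limit stood EIF5A2 at a mean of 2.56 FPKM, and just outside it EIF4E3 at 0.863 FPKM and EIF4EBP3 at 0.636 FPKM. The members' transcripts made up 1.10%, 1.13% and 1.12% of the summed FPKM in knockdown replicates 1, 2 and 3, and 1.11% and 1.06% in control replicates 1 and 2.

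HaCaT is an established human keratinocyte line. The study set 3 libraries of HaCaT cells with AHNAK knockdown against 2 libraries of control HaCaT cells, all grown in medium with fetal bovine serum, and measured total RNA by sequencing. AHNAK encodes a giant scaffold protein, and the series title ties it to keratinocyte proliferation and differentiation. The labels speak of a knockdown and the design text of a knockout, and the value columns are named si and NC. None of these spells out how AHNAK was lowered, whether the 3 knockdown libraries received different reagents, or whether replicates were separate cultures. P-values therefore measure the spread between these libraries, which may be technical.

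Initiation factors bring the initiator tRNA and the small ribosomal subunit to the start codon of an mRNA. The eIF4F proteins bind the cap and unwind the leader, eIF3 joins the mRNA to the small subunit, eIF2 carries the initiator tRNA as a complex with GTP, and eIF1, eIF1A and eIF5 govern start codon choice. Control acts mainly at 2 steps: kinases that phosphorylate eIF2 and so block its recharging by eIF2B, and 4E-binding proteins that keep eIF4E from the scaffold eIF4G until mTORC1 phosphorylates them. Keratinocytes in culture divide and enter differentiation, and protein synthesis changes with both.

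Many mRNAs of the translation machinery begin with a C and an unbroken run of C and T, the terminal oligopyrimidine tract, through which mTORC1 governs their translation. The starts that carry such a tract are shown because they set apart a subset of the members, with some that do not for contrast. Sequences are from RefSeq (GRCh38.p14), 5′ to 3′ on the gene's strand, with 8 bases before the annotated start and 20 from it. Capitals mark a tract that opens with C at the start itself and goes on with at least 4 bases that are C or T.
EIF3F, chr11:7987329-7987356, plus strand: tccgcctcCTTCTTTCTCgacaagatgg
EIF3K, chr19:38619180-38619207, plus strand: tccaccacCTCTTCCTgttcccgtcctt
EIF3D, chr22:36529147-36529174, minus strand: catgtttcCTCTTTTCCTggtttctcaa
EIF3M, chr11:32583823-32583850, plus strand: ccagttccCTTTTCCggtcggcgtggtc
EIF2S3, chrX:24054948-24054975, plus strand: tttccttcCTCTTTTggcaacatggcgg
EIF2A, chr3:150546779-150546806, plus strand: agcggtttCTCTTTCCgggacaacatgg
EIF2D, chr1:206612446-206612473, minus strand: agccgggcCCTTTTCgcggccgggcccc
EIF4A2, chr3:186783569-186783596, plus strand: gccgctgtCTTTTCagtcgggcgctgag
EIF4B, chr12:53006448-53006475, plus strand: atccgggtCTTTTgcgttctctttccct
EIF1, chr17:41688877-41688904, plus strand: gcccctctgccccagtcactgagccgcc
EIF4E, chr4:98929114-98929141, minus strand: gagcggttgtgcgatcagatcgatctaa
EIF5A2, chr3:170908618-170908645, minus strand: cgtctcttggaactgccgcggccgccac

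AHNAK itself stood at 113.9, 69.6 and 115.3 FPKM in knockdown replicates 1, 2 and 3, against 204.8 and 242.0 FPKM in control replicates 1 and 2, a log2 difference of -1.19 (SE 0.24; limma, Benjamini-Hochberg adjusted p = 0.372). All 10 keratinocyte markers examined were present, and their sum was lower in each knockdown library (4029 to 5562 FPKM) than in both controls (5865 to 7316 FPKM); its part in the results was not tested. The melanocyte, fibroblast and endothelial lists summed to 1.39 to 4.15 FPKM in knockdown libraries and 1.92 to 3.46 FPKM in controls. The melanocyte gene TYR was at 0 in every library, and the immune list, in which CD68 alone had a mean of at least 1 FPKM, summed to 20.4 to 27.8 FPKM in knockdown and 15.6 to 17.6 FPKM in control libraries. Read depth is unknown, since FPKM values carry no totals. Low genes share value steps within 2 sets of libraries, knockdown replicates 1 and 3 with control replicate 1 (set A) and knockdown replicate 2 with control replicate 2 (set B), and no label describes these sets. Differences within each set are given for the members the results turn on and for those whose sets differ most. Knockdown replicates 1 and 3 also leaned in opposite directions with GC content, with Spearman's rho of 0.61 and -0.55 between GC content and deviation from the mean across 11781 genes.

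No initiation factor gene passed the threshold of an adjusted p of 0.05 over all genes, and 0 of the 12196 genes tested did (0.0% called; limma on log2(FPKM + 0.5), smallest adjusted p = 0.0570). At an unadjusted p under 0.05 there were 2 members, where 11.7% of all tested genes reached it. These were EIF3F, higher in knockdown as 6.22% of all tested genes were, and EIF5A2, lower as 5.48% were. Of the 48 members 32 were higher and 16 lower in knockdown, with a median log2 difference of 0.09, beside 51.3% higher and a median of 0.0070 over all tested genes. With libraries rescaled to equal FPKM sums, which put the median of all genes at -0.04, the split was 27 higher and 21 lower and the members' median 0.04. Without knockdown replicate 3 the split was 28 higher and 20 lower and the median 0.04, and without knockdown replicate 1 the median was 0.13. In bulk RNA, fewer cells of a kind and less RNA per cell cannot be told apart. In 11 members every knockdown library lay above both controls, which is 22.9% against 16.2% of all tested genes, and in 6 members every knockdown library lay below both, which is 12.5% against 15.8% of all tested genes; in either direction 32.0% of all tested genes had groups without overlap. Differences beyond 0.5 in either direction were found in 2 of 48 members (4.17%), where 8.83% of all tested genes had them. The median size of the difference was 0.15 in members and 0.17 over all tested genes. Members also stood at a higher level, with a median of 50.3 FPKM beside 10.7 FPKM over all tested genes. Knockdown replicate 3 held the highest value of 21 members (43.8%, beside 30.0% of all tested genes).

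**Figure D1:**
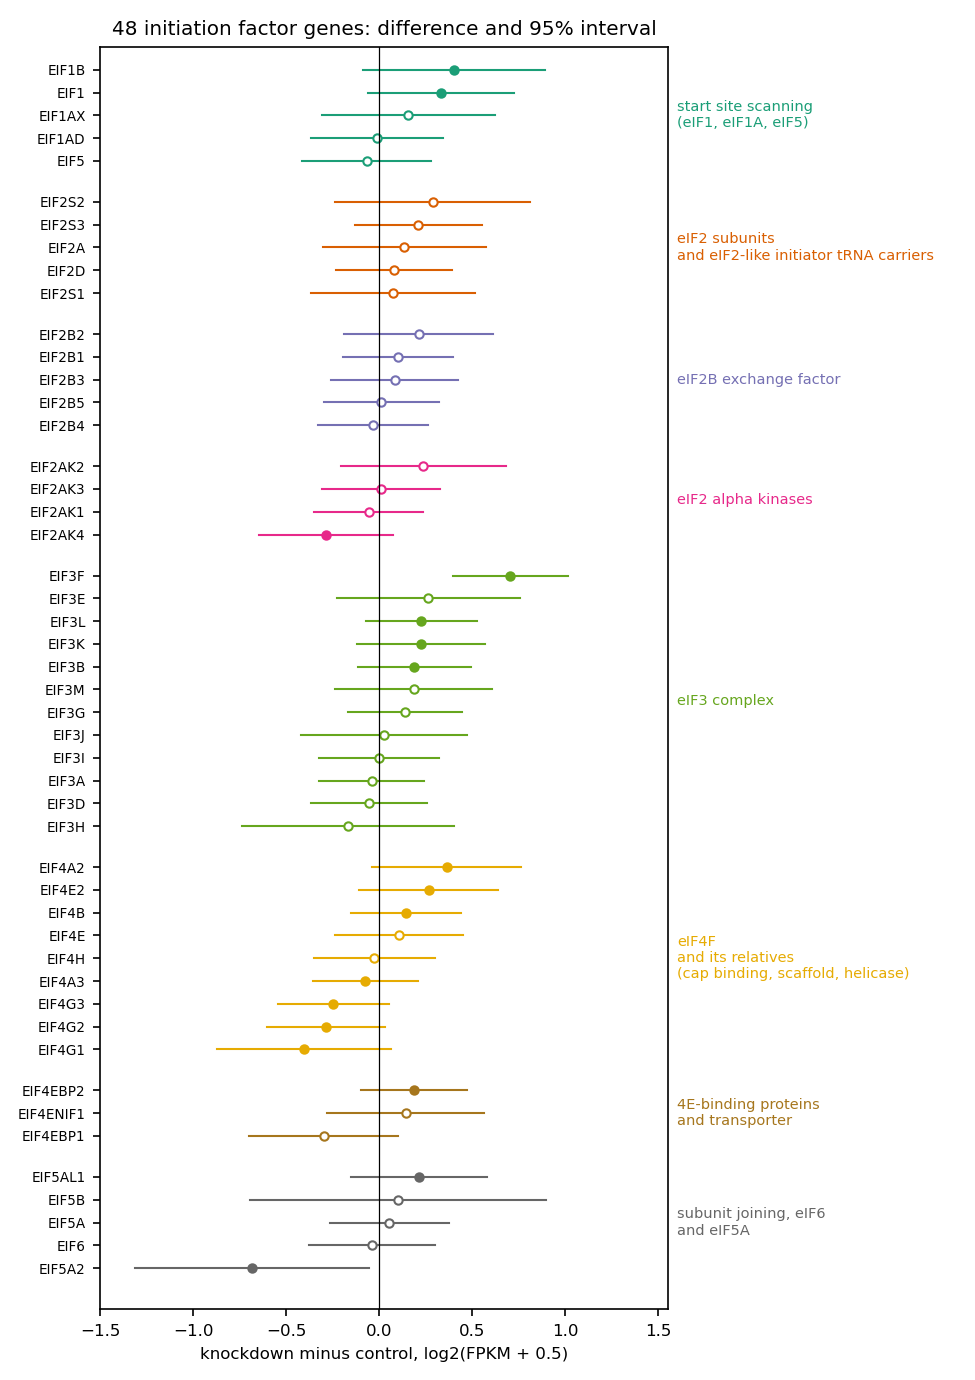
Log2 difference, knockdown minus control, of the 48 initiation factor genes on the log2(FPKM + 0.5) scale (x axis), by role; lines are 95% intervals from limma, filled points are genes whose groups do not overlap and open points those that do. EIF3F (0.70) stands apart on the right and EIF5A2 (-0.68) on the left, and the 3 eIF4G genes lie together below 0.

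EIF3F gave the clearest difference. It encodes a subunit of eIF3 that, with EIF3H, belongs to the family of JAMM and MPN domain proteins. EIF3F (ENSG00000175390.13, chromosome 11, 7970251 to 8001862, plus strand, GENCODE release 29 on GRCh38) stood at 207.9, 228.0 and 197.4 FPKM in knockdown replicates 1, 2 and 3, against 132.3 and 126.0 FPKM in control replicates 1 and 2. All 3 knockdown libraries were well above both controls, with means of 211 ± 15.6 FPKM in knockdown (SD, n = 3) and 129 ± 4.49 FPKM in control (SD, n = 2), a ratio of 1.63. Its log2 difference was 0.70 (SE 0.13, 95% interval 0.39 to 1.01), and the sets gave 0.61 (A) and 0.85 (B). The unadjusted p of 0.0011 ranked 29th of 12196 genes and the adjusted p was 0.372 (limma, Benjamini-Hochberg). Over all tested genes 3.33% lay at least as far from 0. RefSeq names 3 pseudogenes of EIF3F, among which reads could be divided. With every library adjusted for transcript length and GC content, the difference was 0.73.

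The other eIF3 subunits stood closer to their control levels. Of the 12 measured subunits 9 were higher and 3 lower, with a median of 0.16 (set A 0.14, set B 0.10), and without EIF3F the median was 0.14. With libraries rescaled to equal sums EIF3I and EIF3J changed sign. EIF3L, which docks at the edge of the complex, was at 153.1, 171.2 and 165.0 FPKM in knockdown and 141.9 and 136.7 FPKM in control libraries (0.23). EIF3K, its neighbour in the complex, was at 156.4, 170.5 and 194.9 FPKM in knockdown and 143.6 and 152.9 FPKM in control libraries (0.22, and 0.14 without knockdown replicate 3). EIF3B, part of the core that yeast shares, was at 118.0, 104.2 and 116.0 FPKM in knockdown and 96.3 and 101.2 FPKM in control libraries (0.19). In these 3 subunits, as in EIF3F, the groups did not overlap, but the gaps between groups were narrow. Over all tested genes 16.2% were higher without overlap.

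EIF3A, the largest subunit and the scaffold of the complex, was level, at 64.6, 63.5 and 61.7 FPKM in knockdown and 67.0 and 63.2 FPKM in control libraries (log2 difference -0.04, 95% interval -0.33 to 0.24). EIF3D, which can bind the cap of some mRNAs, differed by -0.06, EIF3I by 0.00082, EIF3J by 0.03, EIF3G by 0.14 and EIF3M by 0.18 (0.06 without knockdown replicate 3), all with overlapping groups. EIF3E was at 160.0, 194.9 and 255.5 FPKM in knockdown against 161.3 and 171.4 FPKM in control libraries (0.26), and knockdown replicate 3 was the highest by far: without it the difference was 0.09. EIF3H went in opposite directions in the sets, at 136.4, 118.5 and 199.5 FPKM in knockdown and 148.4 and 186.0 FPKM in control libraries (-0.17; set A 0.15, set B -0.65).

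Within a library, EIF3F stood higher among its partners in knockdown. In knockdown replicates 1, 2 and 3 it ranked 1st, 1st and 3rd of the 12 subunits by FPKM, against 5th and 6th in control replicates 1 and 2. Divided by the median of the other 11 subunits it was at 1.62, 1.92 and 1.56 in knockdown and 1.07 and 1.08 in control libraries, a ratio that does not depend on a library's scale. EIF3J, a loosely bound subunit, was the lowest in every library, at 36.9 to 53.5 FPKM in knockdown and 40.3 to 42.4 FPKM in control libraries. EIF3C, a core subunit that every cell uses, was listed at 0 in 4 libraries and at 0.0114 FPKM in knockdown replicate 2, and its near-identical copy EIF3CL at 0 in all, so these rows hold no usable level.

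**Figure D2:**
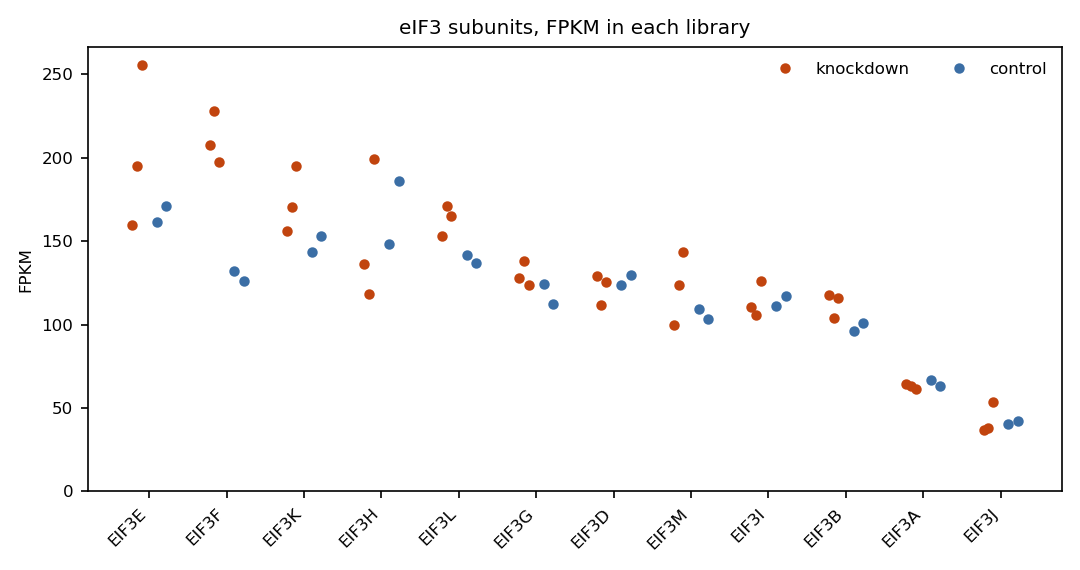
FPKM (y axis, from 0) of the 12 eIF3 subunits in each knockdown and control library, ordered by mean level. EIF3F is the one subunit in which the knockdown points, at 197.4 to 228.0 FPKM, stand far above the control points, at 126.0 and 132.3 FPKM.

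The 3 eIF4G genes were all lower in every knockdown library than in both controls, as 15.8% of all tested genes were. EIF4G1 encodes the main scaffold that joins the cap-binding eIF4E, the helicase eIF4A and eIF3. EIF4G1 (chromosome 3, 184314495 to 184335358, plus strand) was at 189.3, 151.6 and 122.8 FPKM in knockdown replicates 1, 2 and 3, against 209.7 and 193.4 FPKM in control replicates 1 and 2. The knockdown libraries were spread widely, with replicate 1 close to the controls. Its log2 difference was -0.40 (SE 0.20, 95% interval -0.87 to 0.06; set A -0.46, set B -0.35; limma adjusted p = 0.479), and -0.25 without knockdown replicate 3.

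EIF4G2, also called DAP5, is a shorter relative that lacks the eIF4E-binding part and serves cap-independent initiation. It was at 225.6, 195.1 and 225.8 FPKM in knockdown and 258.9 and 265.0 FPKM in control libraries, a difference of -0.28 (SE 0.13; set A -0.20, set B -0.44; limma adjusted p = 0.465). EIF4G3, a close paralogue of EIF4G1, was at 19.1, 17.2 and 16.9 FPKM in knockdown and 20.9 and 21.2 FPKM in control libraries, a difference of -0.25 (SE 0.12; set A -0.22, set B -0.30; limma adjusted p = 0.485). The controls of these 2 genes lay close together and the knockdown values below them. RefSeq names 0 pseudogenes for each of the 3 eIF4G genes. Their ratios of knockdown to control means were 0.767, 0.823 and 0.840 for EIF4G1, EIF4G2 and EIF4G3.

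The helicase EIF4A2 pointed the other way. It was at 204.8, 270.2 and 263.9 FPKM in knockdown and 203.0 and 177.8 FPKM in control libraries, a log2 difference of 0.36 (SE 0.17, 95% interval -0.04 to 0.76; set A 0.20, set B 0.60; limma adjusted p = 0.461). Knockdown replicate 1 was barely above control replicate 1, so the groups are separated by very little. The ratio of EIF4A2 to EIF4G1 in the same library was 1.08, 1.78 and 2.15 in knockdown and 0.968 and 0.919 in control libraries. EIF4A1, the main eIF4A helicase of dividing cells, was listed at 0 in all 5 libraries, and the readthrough row SENP3-EIF4A1 held at most 0.120 FPKM, so the summed eIF4A level is not known here. EIF4A3, the helicase of the exon junction complex, was at 105.7, 101.4 and 103.0 FPKM in knockdown and 110.6 and 107.0 FPKM in control libraries, lower without overlap by only -0.07 on the log2 scale.

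EIF4E, the cap-binding protein itself, was low and even, at 4.21, 4.53 and 5.30 FPKM in knockdown and 4.32 and 4.28 FPKM in control libraries (0.11, 95% interval -0.24 to 0.45). EIF4E2, a relative that represses translation by binding the cap without eIF4G, was at 15.3, 15.3 and 18.9 FPKM in knockdown and 12.4 and 14.8 FPKM in control libraries (0.27; set A 0.44, set B 0.05; 0.14 without control replicate 1). EIF4B and EIF4H, cofactors of the helicase, differed by 0.14 and -0.03, and EIF4B was at 139.8, 151.8 and 153.8 FPKM in knockdown and 136.8 and 131.6 FPKM in control libraries, with no overlap. Of the 9 eIF4F genes and relatives 4 were higher and 5 lower, 3 and 4 of them without overlap, where 16.2% and 15.8% of all tested genes were, with a median of -0.03.

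EIF4EBP1, the best-known inhibitor of eIF4E, was at 107.7, 85.6 and 79.0 FPKM in knockdown and 116.6 and 105.1 FPKM in control libraries, a log2 difference of -0.30 (SE 0.17; set A -0.34, set B -0.29; limma adjusted p = 0.529). Knockdown replicate 1 lay between the controls, so the groups overlap. EIF4EBP2, its relative, was at 23.0, 25.0 and 23.9 FPKM in knockdown and 21.3 and 20.7 FPKM in control libraries, a difference of 0.19 with no overlap. The ratio of EIF4EBP1 to EIF4EBP2 was 4.68, 3.43 and 3.30 in knockdown and 5.48 and 5.07 in control libraries, so it was lower in each knockdown library. Both 4E-binding proteins together stood at 31.0, 24.4 and 19.4 times the FPKM of EIF4E in knockdown and at 32.0 and 29.4 times in control libraries, with overlap. EIF4ENIF1, which carries eIF4E into the nucleus and to P-bodies, differed by 0.14 (set A -0.13, set B 0.52).

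**Figure D3:**
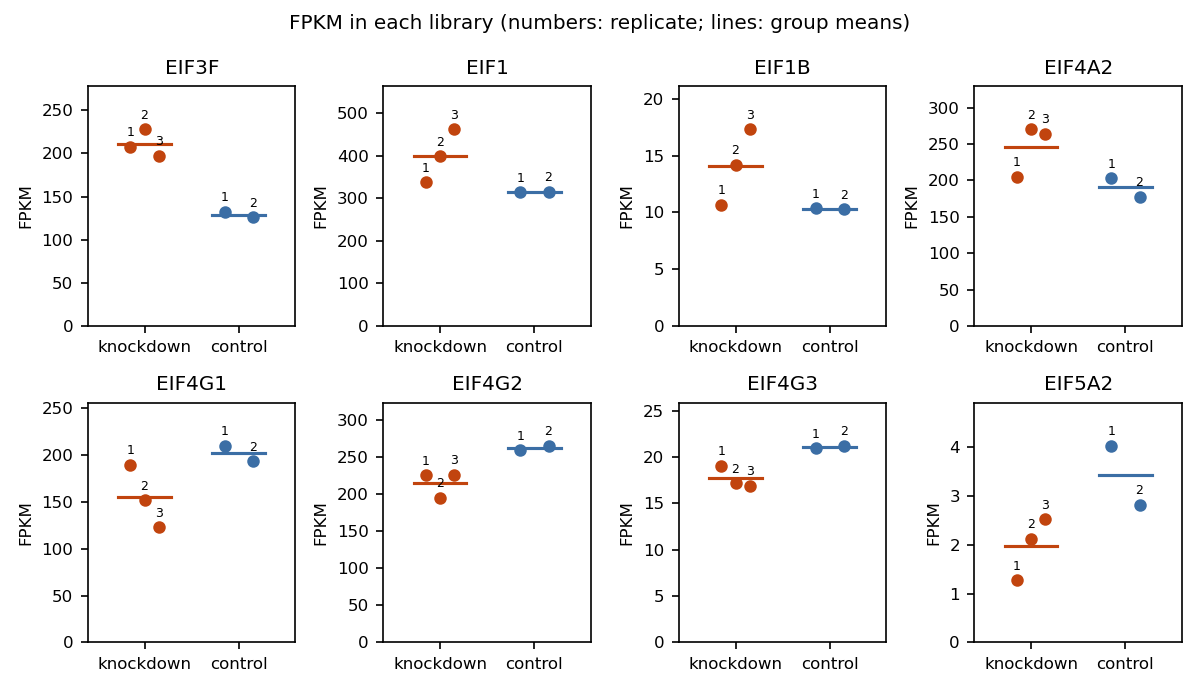
FPKM (y axes, from 0) of 8 initiation factor genes in each library, with knockdown left of control; numbers are replicate numbers and lines group means. EIF3F, EIF1, EIF1B and EIF4A2 are higher in all 3 knockdown libraries, and EIF4G1, EIF4G2, EIF4G3 and EIF5A2 are lower in all 3.

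The start codon factor EIF1 and its close paralogue EIF1B were both higher in every knockdown library, as 16.2% of all tested genes were. EIF1, which rejects poor start codons during scanning, was at 337.1, 398.7 and 462.0 FPKM in knockdown and 314.1 and 314.9 FPKM in control libraries. The controls were nearly equal and the knockdown values spread over a wide range. Its difference was 0.33 (SE 0.16, 95% interval -0.06 to 0.72; set A 0.33, set B 0.34; limma adjusted p = 0.479). EIF1B was at 10.7, 14.2 and 17.3 FPKM in knockdown and 10.4 and 10.3 FPKM in control libraries, a difference of 0.40 (SE 0.20; set A 0.38, set B 0.45; limma adjusted p = 0.487). EIF1 has 7 pseudogenes in RefSeq. With length and GC adjusted, EIF1B was at 0.25 and EIF1 at 0.29, and without knockdown replicate 3 they were at 0.24 and 0.22. EIF1AX, which works beside eIF1 in the decoding site, differed by 0.16 (-0.02 without knockdown replicate 3), EIF1AD by -0.01 and EIF5, the activator of GTP hydrolysis by eIF2, by -0.07, all with overlap.

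All 5 genes for eIF2 subunits and related carriers of the initiator tRNA had positive differences, with overlap between groups in each, but without knockdown replicate 3 EIF2S1 was at -0.08 and EIF2A at -0.02. EIF2S1, the alpha subunit that stress kinases phosphorylate, was at 23.5, 26.9 and 35.2 FPKM in knockdown and 26.9 and 26.4 FPKM in control libraries (0.07, 95% interval -0.37 to 0.52). EIF2S2, the beta subunit, was at 67.4, 78.8 and 111.5 FPKM in knockdown and 65.6 and 72.1 FPKM in control libraries (0.29, but 0.08 without knockdown replicate 3). Knockdown replicate 3 was the highest library for both, and for EIF2S3, the GTP-binding gamma subunit (0.21, and 0.13 without that library), and EIF2A (0.13). EIF2D, which can deliver tRNA without eIF2, differed by 0.08. The 5 subunits of eIF2B, which reloads eIF2 with GTP, ranged from -0.03 for EIF2B4 to 0.21 for EIF2B2, and EIF2B2 had -0.06 in set A and 0.58 in set B. EIF2B1 differed by 0.10, EIF2B3 by 0.08 and EIF2B5, the catalytic subunit, by 0.01.

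Among the 4 kinases of eIF2 alpha, 1 had groups that did not overlap, a share near the 32.0% of all tested genes. EIF2AK4 (GCN2), which senses amino acid shortage, was at 14.8, 13.6 and 11.4 FPKM in knockdown and 17.1 and 15.4 FPKM in control libraries, a log2 difference of -0.29 (SE 0.15, 95% interval -0.65 to 0.07; set A -0.38, set B -0.18; limma adjusted p = 0.498), and -0.19 without knockdown replicate 3. EIF2AK3 (PERK), the kinase of the endoplasmic reticulum, was level at 4.13, 4.64 and 4.07 FPKM in knockdown and 4.36 and 4.14 FPKM in control libraries (0.01, 95% interval -0.31 to 0.33). EIF2AK2 (PKR), the interferon-induced sensor of double-stranded RNA, was at 16.7, 24.2 and 19.0 FPKM in knockdown and 18.1 and 15.3 FPKM in control libraries; set A gave -0.03 and set B 0.65. EIF2AK1, the haem-regulated kinase, differed by -0.06.

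EIF5A2 had the most negative difference of the members, at a low level. It is the inducible paralogue of EIF5A, and both carry hypusine, a modified lysine found on no other protein. EIF5A2 (ENSG00000163577.7, chromosome 3, 170888415 to 170908693, minus strand) was at 1.27, 2.13 and 2.53 FPKM in knockdown replicates 1, 2 and 3, against 4.03 and 2.82 FPKM in control replicates 1 and 2. The groups did not overlap, although knockdown replicate 3 and control replicate 2 were close. Its log2 difference was -0.68 (SE 0.26, 95% interval -1.31 to -0.05; set A -0.97, set B -0.34), with an unadjusted p of 0.0371 and an adjusted p of 0.407 (limma, Benjamini-Hochberg). The pseudocount of 0.5 lowers a difference at this level. EIF5A, which aids elongation and termination as well, was the most abundant member, at 483.2, 447.4 and 528.8 FPKM in knockdown and 460.1 and 474.6 FPKM in control libraries (0.05, 95% interval -0.27 to 0.37). EIF5AL1, an EIF5A-like copy that can share its reads, was at 5.40, 5.39 and 6.86 FPKM in knockdown and 4.76 and 5.19 FPKM in control libraries, a difference of 0.21 with no overlap, and 0.11 without knockdown replicate 3.

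EIF5B, the GTPase that joins the large subunit, had the widest interval of the members, -0.70 to 0.89 around 0.10. It was at 30.8, 29.3 and 61.0 FPKM in knockdown and 30.1 and 41.9 FPKM in control libraries, and knockdown replicate 3 alone was far above the others. EIF6, which keeps the ribosomal subunits apart, was at 147.1, 142.5 and 121.8 FPKM in knockdown and 148.0 and 133.1 FPKM in control libraries (-0.04, 95% interval -0.38 to 0.30).

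The 2 sets of libraries share no sample and gave the same sign in 27 of 48 members (56.2%), beside 55.7% of all tested genes. EIF3F, EIF1, EIF1B, the 3 eIF4G genes, EIF4EBP1, EIF2AK4 and EIF5A2 were among those with the same sign. EIF5B (0.52 in set A, -0.51 in set B), EIF3H (0.15 and -0.65) and EIF1AD (-0.22 and 0.26) were far apart. Opposite signs were also found in EIF1AX (0.29 in set A, -0.05 in set B), EIF2D (0.19 and -0.08), EIF3D (0.04 and -0.21), EIF3J (0.14 and -0.16) and EIF5A (0.14 and -0.08). In members whose groups do not overlap the same sign is fixed by that fact.

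**Figure D4:**
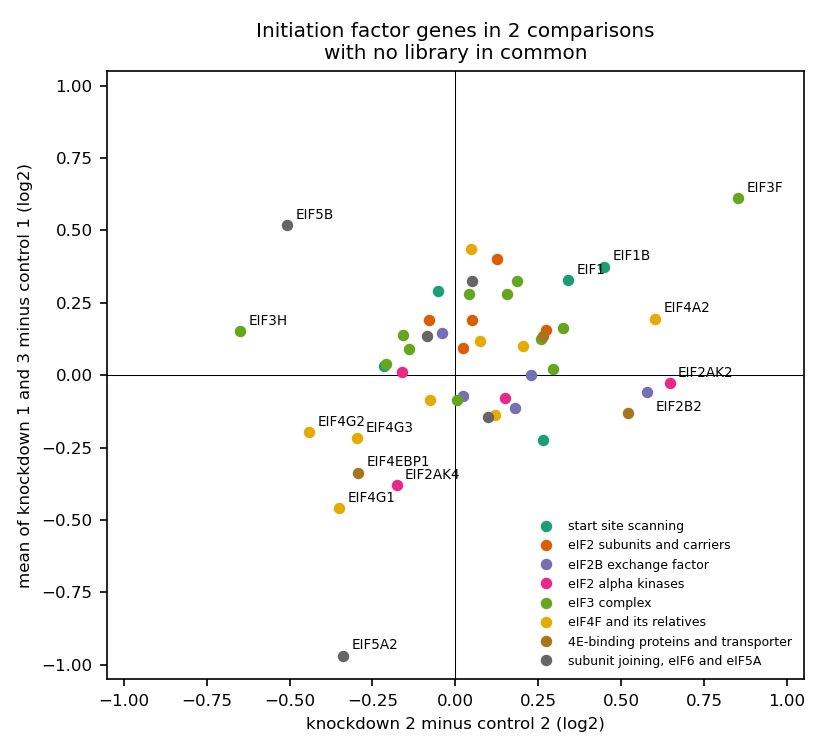
Log2 differences of the 48 members in set A (y axis, mean of knockdown replicates 1 and 3 minus control replicate 1) and in set B (x axis, knockdown replicate 2 minus control replicate 2), coloured by role. EIF3F lies at the upper right (0.61 and 0.85) and the eIF4G genes at the lower left, while EIF5B and EIF3H lie at the upper left.

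Of the 48 members 40 had a RefSeq start sequence at hand. None was at hand for EIF3A, EIF3E, EIF3G, EIF3H, EIF3L, EIF2S2, EIF2AK1 and EIF4EBP1, which the shares leave out. Of the 40, 9 (22.5%) opened with the tract, beside 7.56% of the 9060 tested genes with a sequence and 5.14% of all 27305 genes with one. The median log2 difference was 0.18 over the 9 members with the tract, 8 higher and 1 lower, and 0.05 over the 31 without it, 20 higher and 11 lower. In set A these medians were 0.19 and 0.00088, and in set B 0.21 and 0.04. Over all tested genes it was 0.08 for the 685 with the tract and 0.0017 for the 8375 without it. EIF3F and EIF4A2 have the tract, and the eIF4G genes and EIF5A2 do not. EIF1 and EIF1B, which were also higher, do not have it either. A tract is only a match of letters at an annotated start, and a start listed a few bases away would be missed.

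**Figure D5:**
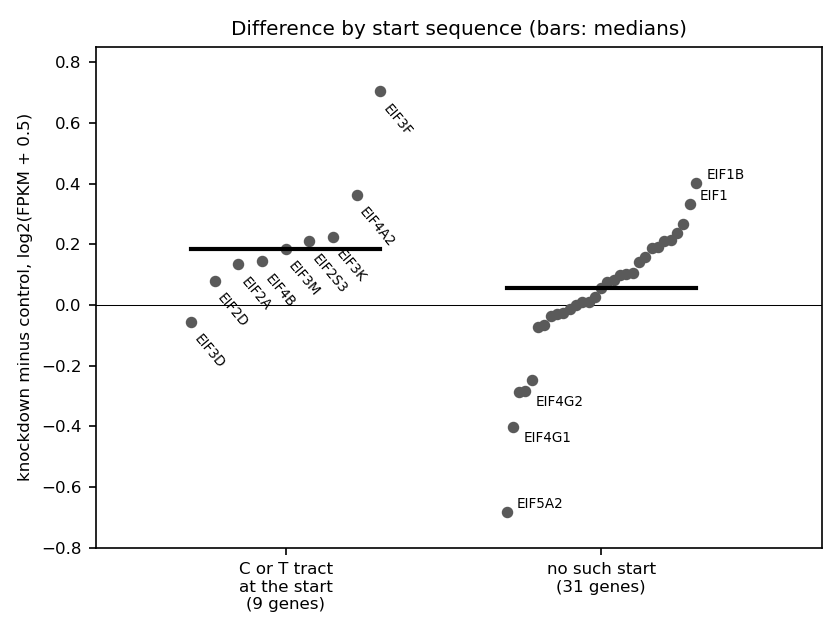
Log2 difference, knockdown minus control, of the 9 members whose annotated start opens with a C and a run of C or T and of the 31 with a start sequence and no such tract; points are genes and bars medians (0.18 and 0.05). EIF3F is the highest and EIF3D (-0.06) the lowest of the 9.

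Base composition moved with the members' values. Their transcripts had a median GC content of 45.9%, beside 48.8% for all tested genes with an annotation. Across the 48 members Spearman's rho between GC content and a library's deviation was 0.76, -0.03 and -0.61 in knockdown replicates 1, 2 and 3 and 0.35 and 0.09 in control replicates 1 and 2, and genes of a library share its preparation and depth. The 24 members of lower GC content had a median difference of 0.15, and the other 24 of 0.0060. With both GC content and length adjusted, the median of all members was 0.05, and the eIF4G genes EIF4G1, EIF4G2 and EIF4G3 stood at -0.31, -0.30 and -0.21.

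Other genes of translation were followed from lists, and 0 of their members passed over all genes (limma adjusted p). Among 19 partners of the initiation factors 11 were higher and 8 lower (median 0.02), of which 1 had an unadjusted p under 0.05, MKNK2, a kinase that phosphorylates eIF4E, at 0.78 on the log2 scale (0.60 in A and 1.07 in B), and DHX29, a helicase for structured leaders, was at -0.31 (-0.19 without knockdown replicate 2). Of 8 genes with an EEF symbol 7 were higher (median 0.23), and the 1 that was lower had a mean under 5 FPKM. The list includes EEF2K (0.24) and EEF1E1, which are not elongation factors themselves. EEF1E1 had the highest value, 0.35, but it rests on knockdown replicate 3: without it the difference was -0.04. EEF1D (0.31) and MTOR were the only others in these lists with an unadjusted limma p under 0.05, which 11.7% of all tested genes reached. In the termination list 2 of 4 were higher (median 0.03), with ETF1, the release factor, at 0.16 (0.09 without knockdown replicate 3) and PELO, which rescues stalled ribosomes, at -0.24. Of 9 genes of mTORC1, its regulators and the S6 kinases 2 were higher and 7 lower (median -0.13). Among the 7 lower were TSC1 (-0.22) and TSC2 (-0.08), which inhibit mTORC1 and are not its subunits. MTOR, its kinase, was at -0.53 (set A -0.62, set B -0.43; -0.34 without knockdown replicate 3) and AKT1S1, an inhibitory subunit, at 0.25. Of 7 genes of ATF4 and its targets 4 were higher and 3 lower (median 0.15), and eIF2 phosphorylation itself was not measured. DDIT3 was at 0.35 and CHAC1 at -0.93 (set A -1.60 and set B -0.03, with -0.55 without knockdown replicate 3 and -0.52 without control replicate 1).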

How the data were processed

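RNA of 3 knockdown and 2 control libraries of HaCaT cells was sequenced. The authors deposited 1 table of FPKM values for 27933 genes, with 5 value columns and no read totals. The submitters' processing notes name HISAT2 2.0.1 and StringTie 2.0.6, with the builds GRCh38 and mm9 and no role for either. Which annotation was used, and whether counting used strand, is not given in the sources used here, so genes that overlap on opposite strands, as many members do, cannot be told apart.

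The 12196 genes whose mean FPKM was 1 or more were tested in R 4.3.3 with limma 3.58.1 on log2(FPKM + 0.5), knockdown minus control, with an intensity trend, two-sided, and Benjamini-Hochberg adjustment over all of them. The pseudocount understates the change of low genes. The design has 10 splits of 5 libraries, so an exact permutation test of 1 gene cannot go below 0.1. Members and lists were chosen with earlier results of these data known, as were the sets of libraries; these were checked again on ratios of values under 0.3 FPKM. Coordinates and base composition came from GENCODE release 29 (96.6% of tested genes matched by symbol), pseudogene copies and starts from RefSeq. Adjustment for GC content and length used loess (span 0.3). Both were taken from each gene's longest protein-coding transcript, or its longest transcript where it had no such one. That transcript, of 7540 bases for EIF3F, may not be the one these cells express.

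Values in every library are given for the 6 members with the most positive and the 6 with the most negative difference, for members whose groups do not overlap, and for EIF4E, EIF4G1, EIF4A1, EIF4EBP1, EIF4EBP2, EIF2S1, EIF2AK3, EIF2AK4, EIF3A, EIF5A and EIF6 whatever their result; others were named after their values were seen. Of each other translation list, the gene with the largest difference each way among those with a mean of at least 5 FPKM is named. Ratios between members were formed after values were seen and are given without a test. On simulated data (12196 genes, 10 runs), the test called 48.4% of log2 changes of 1, 1.8% of 0.5 and 0.0325% of unchanged genes. The simulated noise was independent between genes, with residual SDs shuffled among them, and held no effect shared by a library's genes. The rates may therefore not hold for the real libraries. Alternatives were other pseudocounts, filters, scalings, limma settings, a replicate block, a set term, the GC and length adjustment, leaving out each library, and leaving out EIF4EBP1 and EIF4EBP2, the last chosen after seeing the data.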

Additional observations from a re-analysis of the deposited data

How the results depend on the processing

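At an unadjusted limma p under 0.05 there were 1427 genes and 2 members in the reported fit. Over the alternatives there were 564 genes (without control replicate 2) to 4285 (array weights), and 1 to 15 members, with 828 genes under a set term, 977 under the replicate block and 690 and 740 without control replicate 1 and knockdown replicate 2. Over all tested genes, 0 passed in the reported limma fit, 1 with a pseudocount of 1, 1 without the intensity trend, 1 with robust eBayes and 1 at an adjusted p of 0.1. Array weights (0.530, 3.98 and 0.257 in knockdown and 1.36 in each control library) gave 1428 calls and leaving out a library gave 0 to 9, the 9 without control replicate 1. Array weights called 2 members, EIF3F at 0.79 and EIF4G2 at -0.39, and put AHNAK at -1.55 past the threshold. Among 813 member values 751 kept direction and side of the threshold, and 31 of 48 members kept their sign throughout. Part of this tally was fixed in advance. The filters, the fit without the intensity trend and robust eBayes cannot change a member's difference. The replicate block gives the same differences as leaving out knockdown replicate 3. The cause of each reversal below was not tested. With quantile normalization, EIF1AD was at 0.0024, EIF2AK3 at -0.0020, EIF2B5 at -0.0098, EIF3I at -0.040, EIF5A at -0.041. With array weights, EIF1AD was at 0.087, EIF2B3 at -0.012, EIF3I at -0.083, EIF3J at -0.10, EIF4H at 0.027, EIF5A at -0.037, EIF5B at -0.21, EIF6 at 0.015. With a replicate block, EIF1AD was at 0.025, EIF1AX at -0.021, EIF2A at -0.020, EIF2B3 at -0.012, EIF2B4 at 0.016, EIF2S1 at -0.084, EIF3I at -0.073, EIF3J at -0.14, EIF4H at 0.037, EIF5A at -0.0072, EIF5B at -0.24, EIF6 at 0.045. With libraries rescaled to the same FPKM sum, EIF2AK3 was at -0.041, EIF2B5 at -0.043, EIF3I at -0.054, EIF3J at -0.027, EIF5A at -8.3e-05. With a set term, EIF3I was at -0.0087. With GC and length adjusted, EIF2B5 was at -0.0023, EIF3I at -0.067, EIF3J at -0.043. Leaving out 1 library at a time gave ranges across 0 of EIF1AD -0.16 to 0.13, EIF1AX -0.021 to 0.26, EIF2A -0.020 to 0.26, EIF2AK3 -0.045 to 0.042, EIF2B3 -0.012 to 0.14, EIF2B4 -0.064 to 0.016, EIF2B5 -0.066 to 0.089, EIF2S1 -0.084 to 0.20, EIF3A -0.083 to 0.00073, EIF3D -0.096 to 0.0063, EIF3I -0.073 to 0.053, EIF3J -0.14 to 0.12, EIF4ENIF1 -0.024 to 0.31, EIF4H -0.11 to 0.056, EIF5A -0.0072 to 0.11, EIF5B -0.24 to 0.33, EIF6 -0.11 to 0.045. The replicate block called 0 genes and 0 members, with EIF3F at 0.75. The shared numbers form only 2 pairs, whose deviations correlated at -0.06 and -0.58. The 2 controls deviate from their mean by equal and opposite amounts, so these correlations cannot decide whether samples are paired. EIF3F ranged from 0.64 to 0.79 over all alternatives, EIF4G1 from -0.56 to -0.25, EIF4G2 from -0.39 to -0.21, EIF4G3 from -0.30 to -0.21 and EIF5A2 from -0.91 to -0.46. The median of the members, 0.09 as reported and without EIF4EBP1 and EIF4EBP2 (left out after seeing the data), was 0.04 with equal FPKM sums, 0.04 under the replicate block, 0.05 with GC and length adjusted and 0.04 to 0.13 when 1 library was left out, lowest without knockdown replicate 3 and highest without knockdown replicate 1. The median stayed above 0 in every alternative run, but several of these leave the members' differences unchanged or repeat another. Depth is unknown, and 3 and 2 libraries limit the precision of each value.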

Other observations

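The antisense row EIF3J-AS1, which the choice of members leaves out, differed by 0.45 on the log2 scale between knockdown and control libraries. Its unadjusted limma p was 0.00998 and its Benjamini-Hochberg adjusted p 0.387, so it did not pass. An unadjusted p under 0.05 was reached by 11.7% of all tested genes. EIF3J itself differed by 0.03.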
